A study of Mus musculus with 6 samples.

Results

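The regulators of G protein signalling are a gene family whose products switch off signals from G protein-coupled receptors. The 10 genes described here, Rgs1, Rgs2, Rgs3, Rgs4, Rgs5, Rgs10, Rgs12, Rgs14, Rgs16 and Rgs19, were taken by symbol, and all 10 were among the 18197 symbols of the count table. They were measured by RNA-seq in 6 libraries of cancer-associated fibroblasts, the matrix-producing stromal cells of a tumour, sorted by flow cytometry from mammary tumours of C57BL/6 mice. All the mice carried the polyoma middle T oncogene (PyMT), and tumours were harvested at 16 to 20 weeks. One group of 3 libraries is labelled WT. The other group of 3 is labelled mPGES-1 KO, shortened here to KO-labelled, for mice without microsomal prostaglandin E synthase-1, the enzyme that makes prostaglandin E2 (PGE2). The promoter driving the oncogene, the sort markers, the kind of knockout allele and any pooling of animals do not appear in the labels.

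A receptor activates a heterotrimeric G protein by loading its alpha subunit with GTP, and the RGS domain speeds the hydrolysis of that GTP and so ends the signal. Most members act on the Gi and Gq classes of alpha subunit, and Rgs2 prefers Gq. PGE2 itself signals through G protein-coupled receptors of the Gs, Gi and Gq classes. Rgs1, Rgs2, Rgs3, Rgs4, Rgs5 and Rgs16 belong to the R4 subfamily, most of which are little more than an RGS domain with a short membrane-binding end. Rgs10, Rgs12 and Rgs14 form the R12 subfamily, and Rgs19 belongs to the RZ subfamily. Rgs5 is widely used as a marker of pericytes, the mural cells that wrap capillaries, and Rgs4 and Rgs16 are also found in mural cells, while Rgs1 is best known from lymphocytes.

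Rgs1, Rgs2, Rgs4, Rgs5 and Rgs16 lie on mouse chromosome 1, by GENCODE M21 on GRCm38, the assembly that the mm10 build of the files also names. Rgs5 (plus strand, 169655501 to 169695813) and Rgs4 (minus strand, 169741477 to 169747642) face each other across 45.7 kb that hold 0 other protein-coding genes. Rgs16 lies on the plus strand from 153740349 to 153745468, and 121 protein-coding genes separate it from Rgs5. Rgs2 (minus strand, 143999338 to 144004161) and Rgs1 (minus strand, 144242296 to 144249242) are 238 kb apart with 1 protein-coding gene, Rgs13, between them. The others are on chromosome 4 (Rgs3), 7 (Rgs10), 5 (Rgs12), 13 (Rgs14) and 2 (Rgs19). Exons of Rgs16 share 10.1% and those of Rgs12 5.5% of their bases with an antisense gene, and the library kit does not mark strand, so a part of these 2 counts is uncertain.

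The 250 bases before the RefSeq start (GRCm38.p6) are shown for the 3 members that differed between the groups, Rgs5, Rgs4 and Rgs16, and for Rgs2, an R4 member whose groups overlapped, so that the sequences upstream of both kinds can be compared. They run 5′ to 3′ on the gene's strand. Capitals mark matches on either strand to the motifs searched: the TATA box TATAAA, the TEAD site GGAATG, the RBPJ site TGGGAA of Notch signalling, the cAMP-response half-site TGACG, the AP-1 site TGANTCA, the GC box GGGCGG and the CArG box bound by serum response factor. The windows are chr1:169655251-169655500 (Rgs5, plus strand), chr1:169747643-169747892 (Rgs4, minus strand), chr1:153740103-153740352 (Rgs16, plus strand) and chr1:144004150-144004399 (Rgs2, minus strand).
Rgs5: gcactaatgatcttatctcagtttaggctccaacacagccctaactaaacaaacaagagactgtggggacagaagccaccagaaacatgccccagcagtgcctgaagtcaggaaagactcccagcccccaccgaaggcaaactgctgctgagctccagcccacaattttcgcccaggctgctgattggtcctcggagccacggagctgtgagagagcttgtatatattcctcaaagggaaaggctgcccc
Rgs4: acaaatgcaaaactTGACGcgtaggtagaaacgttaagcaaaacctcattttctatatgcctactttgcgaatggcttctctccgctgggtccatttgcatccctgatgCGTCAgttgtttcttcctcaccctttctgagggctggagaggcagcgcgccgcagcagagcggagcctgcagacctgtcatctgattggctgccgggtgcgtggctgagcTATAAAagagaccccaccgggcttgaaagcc
Rgs16: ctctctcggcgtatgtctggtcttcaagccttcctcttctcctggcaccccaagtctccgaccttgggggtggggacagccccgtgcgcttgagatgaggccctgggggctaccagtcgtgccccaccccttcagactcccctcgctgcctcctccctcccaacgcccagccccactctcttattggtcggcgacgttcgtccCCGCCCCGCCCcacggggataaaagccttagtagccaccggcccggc
Rgs2: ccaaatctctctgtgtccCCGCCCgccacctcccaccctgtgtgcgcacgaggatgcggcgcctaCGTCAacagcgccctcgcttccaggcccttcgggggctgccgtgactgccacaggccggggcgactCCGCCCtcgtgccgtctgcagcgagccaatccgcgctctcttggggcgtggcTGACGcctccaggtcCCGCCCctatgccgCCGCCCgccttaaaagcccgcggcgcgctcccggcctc

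The Rgs5 window held none of the 7 motifs. The Rgs4 window held TATAAA 31 bases before the start and half-sites of the cAMP-response type 236 and 141 bases before it. The Rgs16 window held a pair of overlapping GC boxes 47 and 42 bases before the start. The Rgs2 window held 4 GC boxes and 2 cAMP-response half-sites, 185 and 67 bases before the start. Over 32851 RefSeq windows of this length, 12.4% held TATAAA, 17.8% a half-site, 32.7% a GC box and 1.47% a CArG box, which none of these 4 windows held. As the Rgs5 window had no match, no searched motif could be common to the 3 members that fell. GC content was 53.6% before Rgs5 and Rgs4, 66.4% before Rgs16 and 72.4% before Rgs2, against a median of 52.4%. Such matches describe letters only and say nothing of what binds there.

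Depth and cell content of the libraries bear on every value below. Total counts ran from 37432510 to 43648450 in the WT-labelled libraries and from 23013498 to 37249186 in the KO-labelled ones, so 3 counts stand for 0.0687 to 0.130 CPM (counts scaled to a library's size). These floors leave out the TMM scaling applied to the other CPM values. Ptges, the gene of mPGES-1, had 26.3 ± 6.49 CPM in the WT-labelled libraries and 150.3 ± 31.1 CPM in the KO-labelled ones (SD, n = 3 each), the opposite of what loss of the transcript gives. Gene totals do not separate a deleted part, so this level does not settle which group carries the deletion, and every direction here follows the labels. Of 12 fibroblast markers all were detected in every library, and together they took 2.37 ± 1.22% and 1.33 ± 0.726% of counts. The libraries also held markers of other cells: 16 luminal epithelial markers took 0.979 ± 0.322% and 4.10 ± 0.907% of counts, 13 pericyte markers other than Rgs5 took 0.511 ± 0.257% and 0.0244 ± 0.0107%, and 18 leukocyte markers 0.0582 ± 0.0357% and 0.1055 ± 0.0721% (labelled WT and labelled mPGES-1 KO in turn). In bulk RNA, fewer cells of a type and less RNA per cell cannot be told apart.

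Rgs5, Rgs16 and Rgs4, all of the R4 subfamily, were 17.8-fold, 33.3-fold and 19.9-fold lower in mean CPM in the KO-labelled libraries. The other 7 members did not pass the test. Rgs3 and Rgs12 were low in each library labelled mPGES-1 KO, and Rgs2, Rgs1, Rgs10 and Rgs19 had overlapping levels in both groups. The summed CPM of Rgs4, Rgs5 and Rgs16 was 2297 ± 1023 in the WT-labelled libraries and 116 ± 42.7 in the KO-labelled ones, while that of the other 7 was 218.5 ± 73.7 and 208 ± 118 (SD, n = 3 each). Counts were tested over all 16543 genes with edgeR's quasi-likelihood test, two-sided, with Benjamini-Hochberg adjustment, and an adjusted p under 0.05 was taken as a call. In either direction 2.76% of all tested genes were called. By this rule 3 of 10 members were lower and 0 higher, against 1.56% of all tested genes called lower and 1.2% called higher. No member was higher at an unadjusted p under 0.05, in DESeq2 or in limma-voom either, where 3 and 2 members were lower. Members whose groups did not overlap numbered 5 lower and 0 higher, where 15.7% of all tested genes were apart in the lower direction and 12.2% in the higher. The median log2 fold change of the members was -2.15, and that of all tested genes -0.04.

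**Figure D1:**
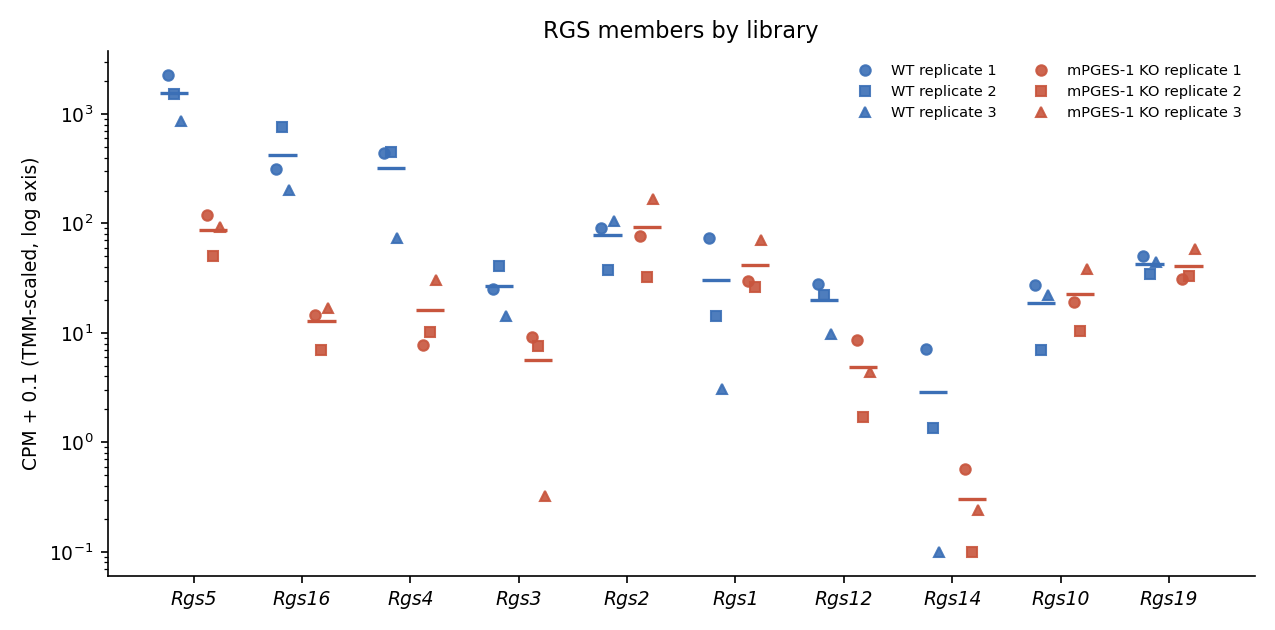
CPM of each RGS member in each library on a log axis, with 0.1 added so that a count of 0 can be drawn. Blue marks the WT-labelled libraries and red the KO-labelled ones, symbols the replicate, and bars the group mean. Rgs5, Rgs16, Rgs4, Rgs3 and Rgs12 lie apart between the groups, and the other 5 overlap.

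Rgs5 ranked first of the members per kilobase of exon in each library labelled WT, though not in each labelled mPGES-1 KO. It was at 2291, 1512 and 858 CPM in WT replicates 1, 2 and 3 as labelled. Replicates 1, 2 and 3 of mPGES-1 KO held 119.6, 49.9 and 92.7 CPM. The lowest library labelled WT lay well above the highest labelled mPGES-1 KO. Group means were 1554 ± 717 and 87.4 ± 35.2 CPM (SD, n = 3 each), and the log2 fold change was -4.15 ± 0.51 (SE; edgeR adjusted p = 0.0171). Leaving out WT replicate 2 (adjusted p = 0.0620) or mPGES-1 KO replicate 2 (0.0881) or 3 (0.0724) ended the Rgs5 call, and over 13 alternatives the adjusted p lay between 1.31e-15 and 0.0881. Each of these 3 fits had at most 1 called gene in the whole table, and the log2 fold change of Rgs5 itself stayed between -4.45 and -3.75.

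Rgs16, an R4 member that acts on Gi and Gq subunits, had the largest fold difference of the 10 members. Its level was 317, 753 and 200.1 CPM in the WT-labelled libraries, replicates 1 to 3, against 14.6, 6.92 and 16.6 CPM in the KO-labelled ones. WT replicate 2 was the highest, and the groups did not overlap. Group means were 423 ± 292 and 12.7 ± 5.11 CPM (SD, n = 3 each), and the log2 fold change was -5.06 ± 0.63 (SE; edgeR adjusted p = 0.0171). Rgs16 lost its call without WT replicate 2 (-4.29, adjusted p = 0.0554) and also without mPGES-1 KO replicate 1 (-5.16, 0.0507), 2 (-4.75, 0.0926) or 3 (-5.30, 0.0677), and the adjusted p ran from 4.12e-17 to 0.0926 over 13 alternatives.

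Rgs4, the chromosomal neighbour of Rgs5, was at 441, 447 and 73.5 CPM in the WT-labelled libraries and at 7.68, 10.1 and 30.6 CPM in the KO-labelled ones, replicates 1 to 3. Both groups had a library near the other, WT replicate 3 and mPGES-1 KO replicate 3, yet the groups stayed apart. Group means were 320.5 ± 213.9 and 16.1 ± 12.6 CPM (SD, n = 3 each), and the log2 fold change was -4.31 ± 0.84 (SE; edgeR adjusted p = 0.0444). This was the weakest of the 3 calls. It was lost without WT replicate 1 (adjusted p = 0.0636) or 2 (0.135), or mPGES-1 KO replicate 1 (0.113), 2 (0.179) or 3 (0.0814), and in limma-voom (0.0559), in a range of 6.32e-08 to 0.179 over 13 alternatives, with a log2 fold change between -5.17 and -3.94.

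Over the 6 libraries the log2 CPM of Rgs5 followed that of Rgs16 (Pearson r = 0.972) and of Rgs4 (0.929), and Rgs4 followed Rgs16 (0.941). These values describe 6 libraries that fall into 2 groups, and they carry no test. Among 10918 genes averaging 5 CPM or more, the closest to Rgs5 were Zbtb45 (0.999), Mfsd5 (0.995) and Mblac1 (0.993). Those closest to Rgs16 were Myl9, a myosin light chain of contractile cells, Il34, a cytokine that binds the CSF1 receptor, and Snx18 (0.997, 0.997 and 0.997). Those closest to Rgs4 were Vstm4 (0.996), Pop7 (0.994) and Hopx (0.993). The 3 sets of closest genes had no gene in common.

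The pericyte markers were lower in the same group as these 3 members. Of the 14 on the list, which includes Rgs5, all 14 were lower without overlap and 10 were called. Over all tested genes, 15.7% were lower without overlap and 1.56% were called lower. None of the 14 was at 0 in all libraries labelled mPGES-1 KO. The 13 without Rgs5 summed to 4640, 7406 and 2892 CPM in the WT-labelled libraries and to 213, 153 and 385 CPM in the KO-labelled ones, replicates 1 to 3. Set against that sum in the same library, Rgs5 counts came to 49.4, 20.4 and 29.7% in the WT-labelled libraries and to 56.1, 32.5 and 24.1% in the KO-labelled ones, so the groups overlapped. Rgs4 came to 9.50, 6.04 and 2.54% and to 3.61, 6.61 and 7.94%, which overlapped as well. Rgs16 came to 6.82, 10.2 and 6.92% and to 6.84, 4.51 and 4.32%, where mPGES-1 KO replicate 1 lay just above WT replicate 1. The Rgs16 overlap was narrow, and its mean ratio was 7.97 ± 1.90% and 5.22 ± 1.40% (SD). Ratios of Rgs3 (0.535, 0.549 and 0.492% against 4.23, 4.84 and 0.0588%) and of Rgs14 overlapped too, so overlap did not single out Rgs5, Rgs4 and Rgs16. Those of Rgs1, Rgs2, Rgs10, Rgs12 and Rgs19 were higher in each KO-labelled library. The part of pericyte content in the differences was not tested.

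**Figure D2:**
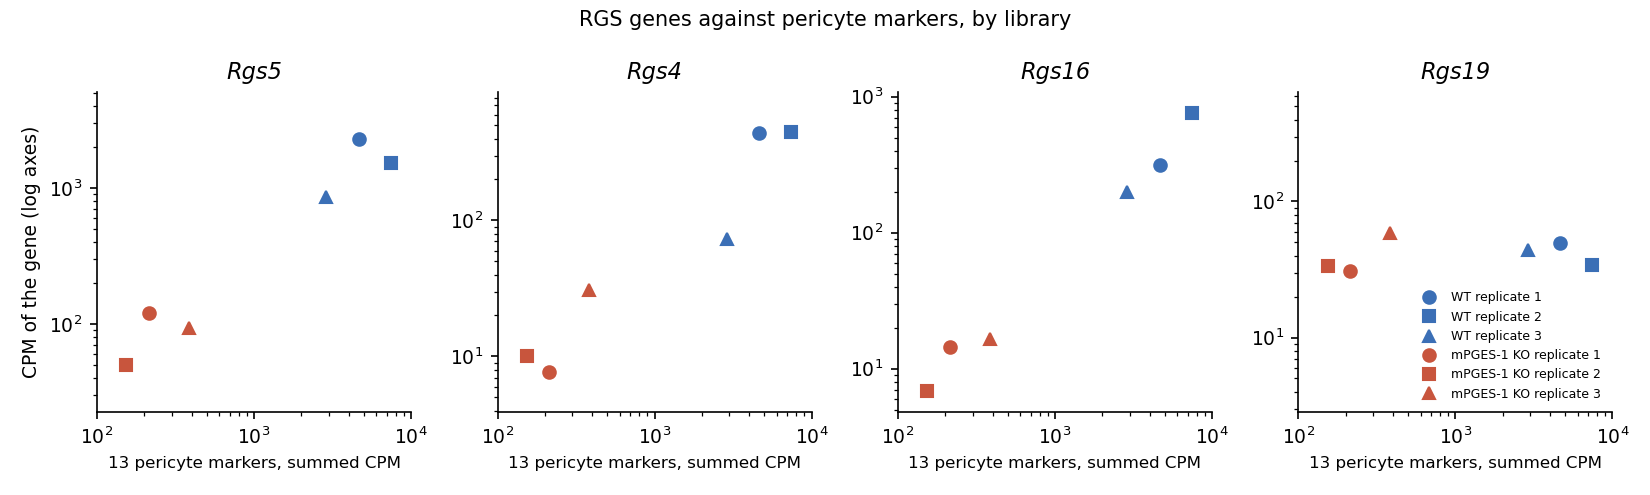
CPM of Rgs5, Rgs4, Rgs16 and Rgs19 in each library (vertical) against the summed CPM of 13 pericyte markers without Rgs5 (horizontal), both on log axes. Each point is a library, blue labelled WT and red labelled mPGES-1 KO. The first 3 genes and the marker sum are both lower in the KO-labelled libraries, where the sum is 385 CPM or less against 2892 CPM or more. Within the WT-labelled libraries, Rgs5 is highest in replicate 1 and the sum in replicate 2, where Rgs4 and Rgs16 are highest too. Rgs19 stays between 30.9 and 58.6 CPM.

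Rgs3 and Rgs12 were lower in each library labelled mPGES-1 KO, but neither passed the test. Rgs3, the longest R4 member, was at 24.8, 40.7 and 14.2 CPM in the WT-labelled libraries and at 8.998, 7.42 and 0.227 CPM in the KO-labelled ones. The last of these rests on 8 counts. Its log2 fold change was -2.26 ± 1.09 (SE; edgeR adjusted p = 0.318) and ran from -3.19 to -1.69 over 13 alternatives, with no call. Rgs12, a large R12 protein with a GoLoco motif that binds Gi subunits, was at 27.7, 21.9 and 9.58 CPM and at 8.49, 1.59 and 4.28 CPM. Its log2 fold change was -2.04 ± 0.77 (SE; edgeR unadjusted p = 0.0292, adjusted p = 0.199), from -2.74 to -1.59 over 13 alternatives. The groups did not overlap for either gene, and the smallest adjusted p over the alternatives was 0.123 for Rgs3 and 0.0564 for Rgs12. Rgs12 also followed Rgs5 over the 6 libraries (r = 0.925), and Rgs3 less closely (0.712).

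**Figure D3:**
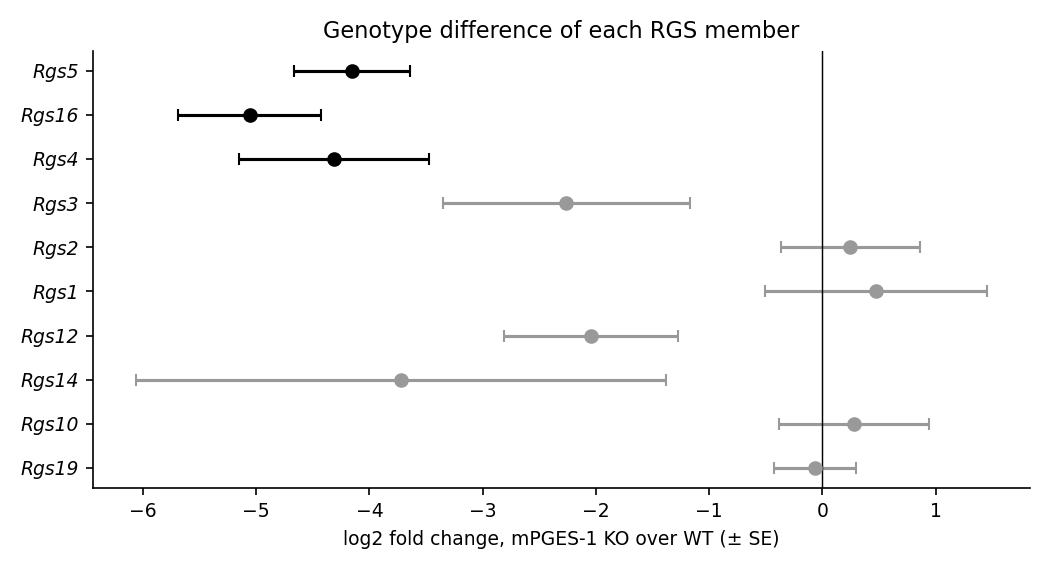
Log2 fold change of each RGS member, labelled mPGES-1 KO over labelled WT, with its standard error; black marks an adjusted p under 0.05 and grey the rest. Rgs5, Rgs16 and Rgs4 lie between -5.06 and -4.15, while Rgs2, Rgs1, Rgs10 and Rgs19 have errors that span 0.

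Rgs2, the Gq-selective R4 member and an early response gene in many cells, had overlapping groups. It was at 90.3, 37.3 and 105.9 CPM in the WT-labelled libraries and at 76.7, 32.4 and 168 CPM in the KO-labelled ones. In each group replicate 2 was the lowest and replicate 3 the highest. The log2 fold change of 0.25 ± 0.61 (SE; edgeR adjusted p = 0.885) turned negative when WT replicate 2 (-0.04) or mPGES-1 KO replicate 3 (-0.51) was left out. Of 16 tested dissociation and early response genes, 2 (Ier3 and Atf3) rose, 1 (Socs3) fell and 13 did not pass. Over all tested genes, 1.2% were called higher and 1.56% lower. The list took 3.13 ± 0.482% and 3.05 ± 0.173% of counts.

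Rgs1, the lymphocyte member of the R4 subfamily, varied widely within the group labelled WT. It was at 73.2, 14.3 and 2.96 CPM there and at 29.6, 25.9 and 70.0 CPM in the KO-labelled libraries. The range labelled mPGES-1 KO lay inside that labelled WT. The log2 fold change of 0.47 ± 0.98 (SE; edgeR adjusted p = 0.859) was decided by single libraries. It was 2.27 without WT replicate 1 (adjusted p = 0.168), -0.06 without WT replicate 3 and -0.12 when mPGES-1 KO replicate 3 was left out.

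The 18 leukocyte markers summed to 988, 342 and 403 CPM in the WT-labelled libraries and to 883, 430 and 1953 CPM in the KO-labelled ones. WT replicate 1 and mPGES-1 KO replicate 3, the libraries with the highest Rgs1, were also those with the highest leukocyte sum of their groups. Of the 18 markers 0 were called by edgeR (1 at an unadjusted p under 0.05, higher; DESeq2 called 1 and limma-voom 0), and none was at 0 in all libraries of the group labelled mPGES-1 KO. Over all tested genes, edgeR called 1.2% higher and 1.56% lower. Groups did not overlap in 2 of the 18 in the higher direction and in 0 in the lower, against 12.2% and 15.7% of all tested genes. Lyz2, the lysozyme gene of myeloid cells and the most abundant of the list, was at 388, 145 and 142 CPM and at 589, 208 and 831 CPM. Set against the leukocyte sum in the same library, Rgs1 counts came to 7.41, 4.18 and 0.735% in the WT-labelled libraries. In the KO-labelled ones they came to 3.355, 6.02 and 3.585%, inside the WT-labelled range. The part of leukocyte content in the Rgs1 level was not tested.

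Rgs10 and Rgs19, members with broad expression in leukocytes and other cells, held overlapping levels. Rgs10, a short R12 protein without the GoLoco motif, was at 27.1, 6.82 and 21.9 CPM and at 19.2, 10.4 and 38.2 CPM (labelled WT, then labelled mPGES-1 KO). As for Rgs2, replicate 2 was the lowest of each group, and the log2 CPM of the pair had r = 0.943 over 6 libraries. Its log2 fold change of 0.28 ± 0.66 (SE; edgeR adjusted p = 0.879) was negative if WT replicate 2 (-0.07) or mPGES-1 KO replicate 3 (-0.33) was omitted. Rgs19, a Gi-directed RZ member, had the smallest SD relative to its mean of the 10 members in both groups, at 49.9, 34.3 and 44.3 CPM and at 30.9, 33.3 and 58.6 CPM. Its means of 42.8 ± 7.89 and 40.9 ± 15.4 CPM (SD, n = 3 each) gave a log2 fold change of -0.07 ± 0.36 (SE; edgeR adjusted p = 0.951), whose sign turned without WT replicate 1 (0.08) and without mPGES-1 KO replicate 1 (0.11) or 2 (0.09).

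Rgs14, the R12 relative of Rgs12 that also carries GoLoco, was barely detected. It had 309, 50 and 0 counts in the WT-labelled libraries (7.04, 1.26 and 0 CPM) and 13, 0 and 5 counts in the KO-labelled ones. A count of 0 allows up to 0.0794 CPM in WT replicate 3 and 0.130 CPM in mPGES-1 KO replicate 2, over totals without TMM scaling. The groups overlapped, and WT replicate 1 held most of its counts. The log2 fold change of -3.72 ± 2.34 (SE; edgeR adjusted p = 0.459) was -1.60 without WT replicate 1 and -5.16 without mPGES-1 KO replicate 1.

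Per kilobase of annotated exon, which allows levels of different genes to be set side by side, the order of the members differed between the groups. In the WT-labelled libraries the order was Rgs5 (342 ± 158 CPM per kb), Rgs16 (181 ± 125), Rgs4 (103.5 ± 69.0), Rgs2 (21.5 ± 9.92), Rgs19 (19.2 ± 3.54), Rgs10 (10.9 ± 6.15), Rgs1 (4.34 ± 5.43), Rgs3 (2.46 ± 1.23), Rgs12 (2.33 ± 1.09) and Rgs14 (0.652 ± 0.885). Each neighbouring pair in that order overlapped over its 3 libraries, and Rgs5 came first in each of the 3. In the KO-labelled libraries it was Rgs2 (25.5 ± 19.1), Rgs5 (19.2 ± 7.73), Rgs19 (18.4 ± 6.90), Rgs10 (13.2 ± 8.30), Rgs1 (6.02 ± 3.52), Rgs16 (5.43 ± 2.19), Rgs4 (5.21 ± 4.05), Rgs12 (0.564 ± 0.409), Rgs3 (0.514 ± 0.433) and Rgs14 (0.0485 ± 0.0576), all SD with n = 3. Here only Rgs4 and Rgs12 were neighbours without overlap, and the first place went to Rgs5, Rgs19 and Rgs2 in replicates 1, 2 and 3.

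The mix of members changed with it. Rgs5 made up 50.1 ± 9.52% of the summed CPM per kb of the 10 members in the WT-labelled libraries and 21.9 ± 7.93% in the KO-labelled ones, and Rgs16 25.9 ± 11.6% and 5.94 ± 1.09%. Rgs2 made up 4.06 ± 3.56% and 24.6 ± 7.61%, Rgs19 3.301 ± 1.92% and 21.0 ± 6.89%, and Rgs10 1.95 ± 1.53% and 13.4 ± 1.99%. These shares depend on each other: the CPM of Rgs2, Rgs19 and Rgs10 overlapped between the groups, and their larger shares stand beside the lower Rgs5, Rgs16 and Rgs4. Exon lengths are unions over all annotated transcripts, which for Rgs1 span the whole gene (6947 bases) and so lower its value.

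**Figure D4:**
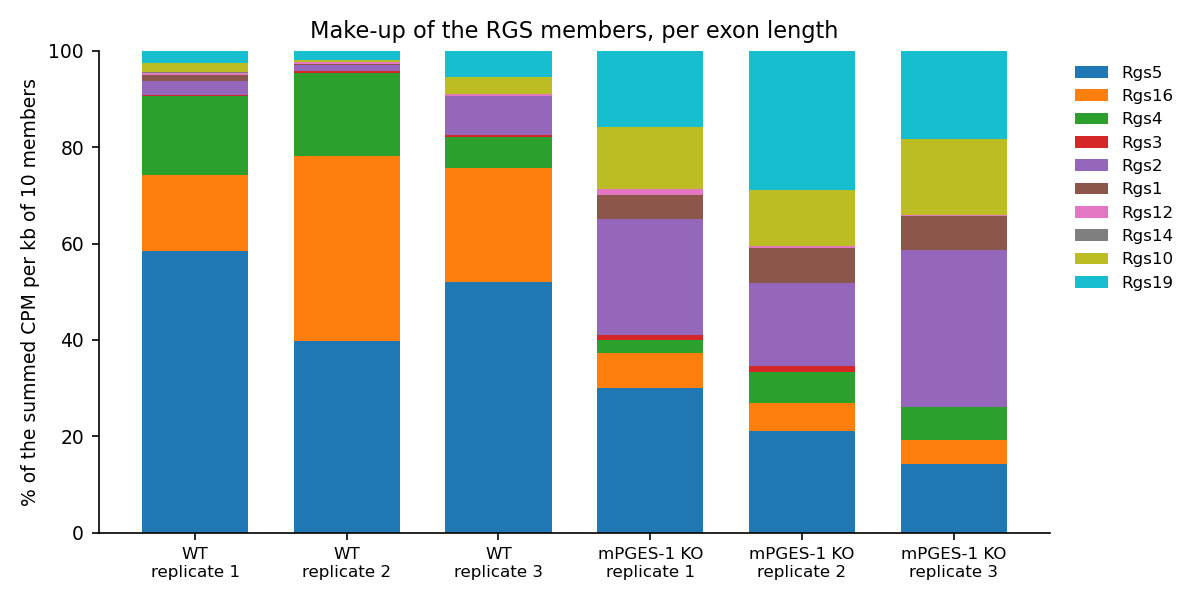
Share of each RGS member in the summed CPM per kb of all 10 members, by library. Rgs5, Rgs16 and Rgs4 fill most of each bar labelled WT, and Rgs2, Rgs19 and Rgs10 fill larger parts of each bar labelled mPGES-1 KO.

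Of 14 further RGS genes listed, 6 were in the table and 4 had enough counts to be tested, of which edgeR called 0 (2 higher at an unadjusted p under 0.05; DESeq2 called 2 higher and limma-voom 0). Over all tested genes, edgeR called 2.76%. Groups did not overlap in 2 of the 4 in the higher direction and in 0 in the lower, against 12.2% and 15.7% of all tested genes. Rgs11, an R7 member that pairs with the beta subunit Gnb5, was at 10.9, 27.0 and 16.0 CPM in the WT-labelled libraries and at 58.0, 38.4 and 42.8 CPM in the KO-labelled ones, with no overlap. Its log2 fold change was 1.37 ± 0.43 (SE; edgeR adjusted p = 0.132). Rgs9, its R7 relative, had 0, 2 and 0 counts in the WT-labelled libraries and 81, 14 and 134 in the KO-labelled ones (edgeR adjusted p = 0.111). Rgs20, an RZ relative of Rgs19, was at 3.39, 1.51 and 2.58 CPM and at 1.57, 5.87 and 16.1 CPM, which overlapped. Rgs6, Rgs18 and Rgsl1 stayed below 3 CPM in every library. The luminal epithelial markers, at 0.979% and 4.10% of counts, were higher in the same libraries as Rgs11 and Rgs9, and their part in these levels was not tested.

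Receptors and G protein subunits of the pathways in which RGS proteins act were counted next. Of 28 tested Gi- and Gq-coupled receptors, 3 fell, 0 rose and 25 did not pass in edgeR, with a median log2 fold change of -0.77 (0 were higher and 8 lower at an unadjusted p under 0.05). DESeq2 called 1 receptor higher and 7 lower, and limma-voom 0 and 4. Receptors whose groups did not overlap numbered 1 higher and 7 lower, against 12.2% and 15.7% of all tested genes. Called by edgeR were 1.2% of all tested genes in the higher direction and 1.56% in the lower. Adra2a, the Gi-coupled alpha-2A adrenoceptor, was at 36.9, 104.3 and 31.7 CPM in the WT-labelled libraries and at 0.951, 1.55 and 0.935 CPM in the KO-labelled ones (log2 fold change -5.65 ± 0.65, SE; edgeR adjusted p = 0.0155). S1pr3, a sphingosine-1-phosphate receptor of mural cells, was at 140.04, 231 and 78.2 CPM and at 11.01, 8.30 and 9.88 CPM (-3.94 ± 0.45; edgeR adjusted p = 0.0155). Ednra, the endothelin receptor of smooth muscle and pericytes, was at 163, 148 and 104.9 CPM and at 20.1, 24.9 and 17.0 CPM (-2.75 ± 0.31; edgeR adjusted p = 0.0143). Each of the 3 receptors was apart between the groups, in the same libraries whose pericyte marker share was 0.511% against 0.0244%. The part of pericyte content in these receptor levels was not tested.

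Among 13 tested G beta and gamma subunits, 2 fell, 0 rose and 11 did not pass in edgeR, and the median was -0.77 (0 were higher and 5 lower at an unadjusted p under 0.05). DESeq2 called 0 of them higher and 4 lower, and limma-voom 0 and 3. Subunits whose groups did not overlap numbered 2 higher and 6 lower, against 12.2% and 15.7% of all tested genes. Over all tested genes, edgeR called 1.2% higher and 1.56% lower. Gnb4, a beta subunit, was at 350.4, 374 and 173 CPM in the WT-labelled libraries and at 36.6, 18.1 and 13.3 CPM in the KO-labelled ones (log2 fold change -3.72 ± 0.50, SE; edgeR adjusted p = 0.0179). Gng11, a gamma subunit, was at 506, 854 and 474 CPM and at 70.5, 63.7 and 121 CPM (-2.84 ± 0.39; edgeR adjusted p = 0.0182). Like Rgs5, all 5 of these genes lost their call without WT replicate 2 (adjusted p from 0.0554 for S1pr3 to 0.0793 for Gnb4), without mPGES-1 KO replicate 2 (from 0.0881 for Adra2a and Ednra to 0.106 for Gnb4) and without mPGES-1 KO replicate 3 (from 0.0658 for Gng11 to 0.0724 for Gnb4). Gng11 also lost it without mPGES-1 KO replicate 1 (0.0600) and Adra2a in limma-voom (0.0560).

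The alpha subunits, the direct substrates of RGS proteins, held 0 calls, where edgeR called 2.76% of all tested genes. So low a share gives few calls in lists this short. Of 9 tested Gi/o and Gq subunits edgeR called 0 (1 higher and 1 lower at an unadjusted p under 0.05, and 1 of each in DESeq2 and in limma-voom), with a median of -0.46. Gnai2, the most abundant of them, was at 447, 639.9 and 468 CPM in the WT-labelled libraries and at 269, 294.5 and 322 CPM in the KO-labelled ones (log2 fold change -0.81 ± 0.26, SE; edgeR adjusted p = 0.135). Those groups did not overlap, the only ones of the 9 apart in the lower direction, and 1 was apart in the higher. Of 4 Gs and G12/13 subunits 0 were called, and 0 by DESeq2, by limma-voom or at an unadjusted p under 0.05, and Gna13 was at 75.9, 60.9 and 70.6 CPM and at 80.9, 52.2 and 52.2 CPM. Groups did not overlap in 1 of the 4, in the lower direction. The effectors downstream of Gq, phospholipase C beta and the IP3 receptors, had 0 of 6 called by edgeR (2 higher at an unadjusted p under 0.05, in DESeq2 and in limma-voom), and Itpr2, the most abundant, overlapped at 29.4, 52.6 and 87.7 CPM and at 79.1, 43.0 and 56.2 CPM. Of these 6, groups did not overlap in 2 in the higher direction and in 1 in the lower. Over all tested genes, 12.2% were apart in the higher direction and 15.7% in the lower. Differences past the threshold were thus seen in 3 RGS members, 3 receptors and the subunits Gnb4 and Gng11, and whether these lists differ from each other was not tested.

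**Figure D5:**
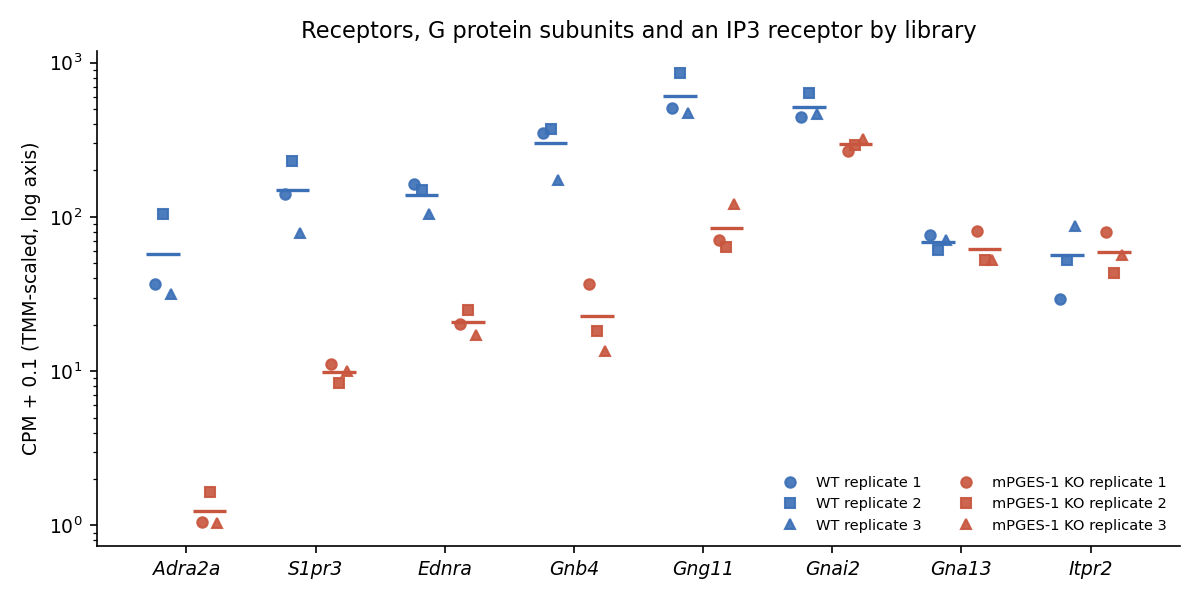
CPM plus 0.1 on a log axis for 3 receptors, 4 G protein subunits and an IP3 receptor in each library, coloured and marked as for the RGS members, with bars at group means. Adra2a, S1pr3, Ednra, Gnb4 and Gng11 lie far apart between the groups, Gnai2 narrowly apart (447 CPM at the lowest labelled WT against 322 CPM at the highest labelled mPGES-1 KO), and Gna13 and Itpr2 overlap.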

How the data were processed

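The authors deposited raw, whole-number counts for 18197 gene symbols, with 1 column for each of the 6 libraries. By the labels' protocols, sorted cells gave cDNA with a template-switching kit, amplified by 16 PCR cycles and sequenced as single reads of 75 cycles; strand is not marked and there are no molecular identifiers, so floors cover counting error only. FastQC 0.11.5, STAR and mm10 are named in the submitters' processing notes; the counter and annotation are not given.

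Counts were filtered by filterByExpr, scaled by TMM and tested in edgeR 4.0.16 (R 4.3.3) by a robust quasi-likelihood fit over 6 libraries with no covariate, after checks on simulated data. Alternatives used DESeq2 1.42.0, limma 3.58.1 (voom), other scalings and filters, the replicate number as a block, and each library left out. CPM are counts over TMM-scaled totals, except the floors, which are over unscaled totals. SE is the log2 fold change over the square root of F. Whether each library is a separate animal is not labelled; p-values then reflect the spread between libraries, which may be technical.

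The members and all gene lists were chosen with earlier results of these data known. Named were all members, the called genes of each pathway list or else its most abundant gene by mean CPM, and for each called member the 3 genes closest by Pearson r of log2(CPM + 0.5). The most abundant gene of the list of other RGS-domain proteins is not reported here. The other RGS genes, Rgs9, Rgs20, Rgs6, Rgs18 and Rgsl1, were named after their values were seen. Sequences are from RefSeq windows, in which 8 of 10 members matched.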

Additional observations from a re-analysis of the deposited data

How the results depend on the processing

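The directions of Rgs4, Rgs5, Rgs16, Rgs3, Rgs12 and Rgs14 held under each alternative that could be fitted (12 for Rgs14, which a filter of 1 CPM in 3 libraries removed, and 13 for the others). In the whole table, 198 genes were called higher and 258 lower, and these counts became 1057 and 1178 in DESeq2, 988 and 977 in limma-voom, and 480 and 633 at an adjusted p under 0.1. With each library left out in turn they ran from 0 to 327 and from 0 to 241. The count of members called lower ran from 0 to 3 over the same libraries left out, with 1, Rgs5, without mPGES-1 KO replicate 1, stayed at 3 under the other scalings and filters and in DESeq2, and was 2 in limma-voom. The signs that turned were those of Rgs1 (-0.06 without WT replicate 3, -0.12 if mPGES-1 KO replicate 3 was omitted), Rgs2 (-0.04 without WT replicate 2, -0.51 if mPGES-1 KO replicate 3 was omitted), Rgs10 (-0.07 and -0.33, the same libraries as for Rgs2) and Rgs19 (0.08 when WT replicate 1 was left out, 0.11 and 0.09 for mPGES-1 KO replicates 1 and 2). With each library left out in turn, Rgs1 ran from -0.12 to 2.27, Rgs2 from -0.51 to 0.69, Rgs10 from -0.33 to 0.68 and Rgs19 from -0.42 to 0.11. The cause of these changes was not tested.

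With the replicate number as a block, 0 genes were called higher and 0 lower in the whole table, and so 0 members. The log2 fold changes of Rgs5, Rgs16 and Rgs4 under the block were -4.13, -4.88 and -4.41 (edgeR adjusted p = 0.0803, 0.0896 and 0.172). Same-numbered libraries did not deviate together (correlations of -0.077, 0.0298 and -0.00353 for replicates 1, 2 and 3), and not every library correlated best with its own number, so the numbers are not taken as pairs. The biological coefficient of variation of 0.818 limits what 3 libraries a group can show. For Rgs14, counts that were low in most libraries and ran from 0 to 309 in the WT-labelled group do not allow a difference to be told from none.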

Other observations

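Other proteins that carry an RGS domain or regulate G alpha subunits were counted in the same fit, in which 2.76% of all tested genes were called and 27.9% had groups that did not overlap. Of 14 tested genes outside the RGS family with an RGS domain (axins, sorting nexins and G protein-coupled receptor kinases among them), edgeR called 0 (1 higher and 4 lower at an unadjusted p under 0.05; DESeq2 called 1 higher and 1 lower, limma-voom 0 higher and 2 lower), with a median log2 fold change of -0.49. The groups did not overlap in 2 of these genes in the higher direction and in 4 in the lower. Of 6 other regulators of G alpha subunits, edgeR called 0 (2 lower at an unadjusted p under 0.05, 1 lower in DESeq2 and 1 in limma-voom). Their groups did not overlap in 1 gene in the higher direction and in 3 in the lower. Ric8a, a chaperone of G alpha subunits, was at 69.6, 111.9 and 73.6 CPM and at 61.4, 66.6 and 24.1 CPM (edgeR adjusted p = 0.410).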
